A study of Cricetiscus sungorus with 16 samples.

Results

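These results describe 208 transcripts of the Siberian hamster ovary whose signal was lower at 8 wk than at 3 wk of age by a similar amount in long and in short days. They are 208 of 20143 transcript identifiers that were tested (1.03%), on an array of 33272 identifiers. A transcript was taken as a member if its mean fell at least 2-fold between 3 and 8 wk in both day lengths, if no array at 8 wk reached the lowest array at 3 wk within a day length, and if the 8-wk means of the 2 day lengths were less than 2-fold apart. A level is the log2 intensity minus that array's 75th percentile (also on the log2 scale), so a difference of 1 is 2-fold, and a fall is the 3-wk mean minus the 8-wk mean.

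All animals were female hamsters gestated and then kept in long days (LD, 16 h of light per day) or short days (SD, 10 h of light per day). Ovaries were taken at 3 wk or at 8 wk, which gave 4 groups of 4 hamsters: LD at 3 wk, SD at 3 wk, LD at 8 wk and SD at 8 wk. RNA from both ovaries of 1 hamster was labelled with a single dye and hybridised to 1 mouse oligonucleotide array. For SD at 8 wk the labels conflict. The titles name SD but give 16 h of light, as the treatment entries do, while the descriptions give SD and 10 h. These samples were taken as SD. The labels give each sample its own code, so the arrays of a group were taken as separate hamsters, and no strain or genotype is given.

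The Siberian hamster breeds seasonally, and short days slow the maturation of its reproductive organs. At weaning the rodent ovary is a small organ with many resting and growing follicles. In adulthood it is a larger one with antral follicles, steroid-secreting interstitial cells and, after ovulation, corpora lutea. In RNA from a whole organ, fewer cells of a type and less RNA per cell cannot be told apart, and a transcript can also have a lower share because other tissue has grown. The files list transcripts by identifier without gene symbols. The roles of the members are therefore not given, the gene lists and cell type markers drawn up for this work could not be matched, the labelled tissue could not be checked against its markers, and only the leading pair of members is named, by identifier. The probes were designed for mouse transcripts, and whether each reports the matching hamster transcript was not tested.

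The 16 arrays lay on 4 slides, each with 1 array of every group. A group always had the same place on its slides, so the effects of place and of group cannot be told apart. Replicate numbers used here are slide numbers. The share of probes well above background ran from 58% to 75.7% over the arrays, and the 75th percentile of intensity, lowest on slide 1, ran from 269 to 1007. No spot was saturated and no pair of arrays held identical values.

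The values that chose the members are given first, as a description. In LD their falls ran from 1 to 2.62 with a median of 1.30, which is 2.46-fold, and in SD from 1.01 to 2.79 with a median of 1.43, or 2.70-fold. Over all identifiers tested the median fall was 0.04 in LD and 0.00 in SD. Most of the members thus lay not far beyond the 2-fold minimum. A total of 109 members (52.4%) fell by less than 1.5 in both day lengths, 24 (11.5%) by at least 1.5 in both, and 2 by at least 2 in both.

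**Figure D1:**
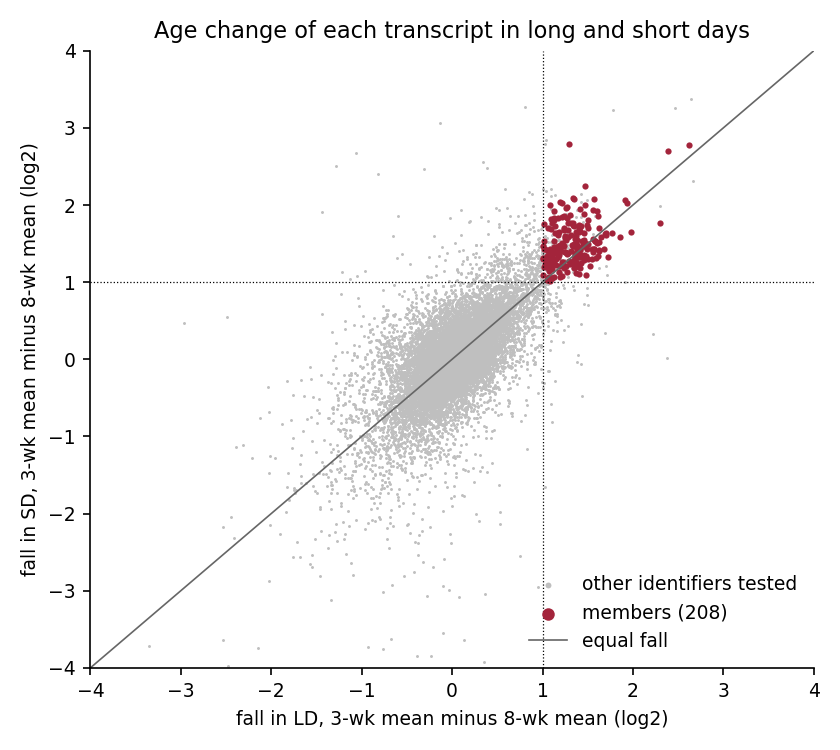
Each point is 1 transcript identifier, with its fall in LD on the x axis and in SD on the y axis, both in log2 units (3-wk mean minus 8-wk mean). The 208 members (dark red) lie above the 2-fold lines (dotted) and mostly just beyond them, and 141 of them lie above the line of equal fall; 16 other identifiers lie beyond the axes.

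Falls that met the size and overlap conditions were commoner in short days, though the difference in number was not tested. They were seen for 284 identifiers in LD (1.41%), for 547 in SD (2.72%) and for 212 in both (1.05%). The members are therefore 73.2% of the LD list and 38.0% of the SD list. Of the 212 transcripts that fell in both, 4 were left out because their 8-wk means were at least 2-fold apart, all with the lower mean in SD. Without the condition on overlap of arrays there would be 321 members.

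The conditions cut through a continuous range. The 3 members nearest the minimum had lower falls of 1, 1.001 and 1.005, and the 3 transcripts nearest to it on the other side, which met the other conditions, had 0.994, 0.992 and 0.991. There were 38 members whose lower fall was under 1.1, and 37 transcripts with one from 0.9 up to 1 that met the other conditions. The limit on the 8-wk difference touched few transcripts: 1 member lay above 0.9 and 1 excluded transcript between 1 and 1.1.

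The member with the largest mean fall was AF009414. In LD at 3 wk its log2 level was 2.97, 1.58, 2.74 and 1.65 on slides 1 to 4, and at 8 wk it was 1.02, −1.69, −0.13 and −0.76. In SD at 3 wk it was 1.67, 1.7 and 1.16 on slides 2 to 4, the spot on slide 1 having been left out as an outlier, and at 8 wk it was −0.06, −0.41, −1.53 and −3.08 on slides 1 to 4. The 8-wk arrays spread more widely than the 3-wk arrays in both day lengths, and the lowest value of all came from SD at 8 wk on slide 4. The group means went from 2.24 ± 0.72 to −0.39 ± 1.14 in LD (standard deviation, n = 4) and from 1.51 ± 0.31 (n = 3) to −1.27 ± 1.36 (n = 4) in SD. These are falls of 2.62 (6.16-fold) and 2.78 (6.86-fold). With slide as a block in the fit, the falls were 2.62 in LD and 3.15 in SD. Within slides the fall ran from 1.95 to 3.27 in LD and from 2.08 to 4.23 in SD, so the 2 day lengths overlapped.

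NM_021459 had the next largest mean fall. In LD its level was 0.39, −1.77, −1.03 and −0.12 at 3 wk and −2.73, −2.98, −3.76 and −2.60 at 8 wk, on slides 1 to 4. In SD it was −1.11, 0.07, −1.24 and −2.15 at 3 wk and −3.64, −3.30, −3.68 and −4.59 at 8 wk. This transcript was dimmer than AF009414 but well above background on all 16 arrays, and here the 3-wk arrays spread more widely than the 8-wk arrays. Its fall was 2.39 in LD (5.23-fold) and 2.70 in SD (6.48-fold). With normexp, another background correction, run with an offset of 50 added to each intensity, it was 1.7 in LD and 1.69 in SD. Both the size and the gap between day lengths thus depended on that setting. An offset makes the falls of dim transcripts smaller, and at 8 wk the intensities of this transcript were 29.2 to 142. The effects of the correction and of the offset were not told apart. Within slides the fall of this transcript was 3.13, 1.21, 2.73 and 2.48 in LD and 2.53, 3.37, 2.43 and 2.44 in SD. Slide 2 gave the smallest fall of this transcript in LD and the largest in SD. Neither of these identifiers had another probe past the detection filter against which the size could be compared.

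**Figure D2:**
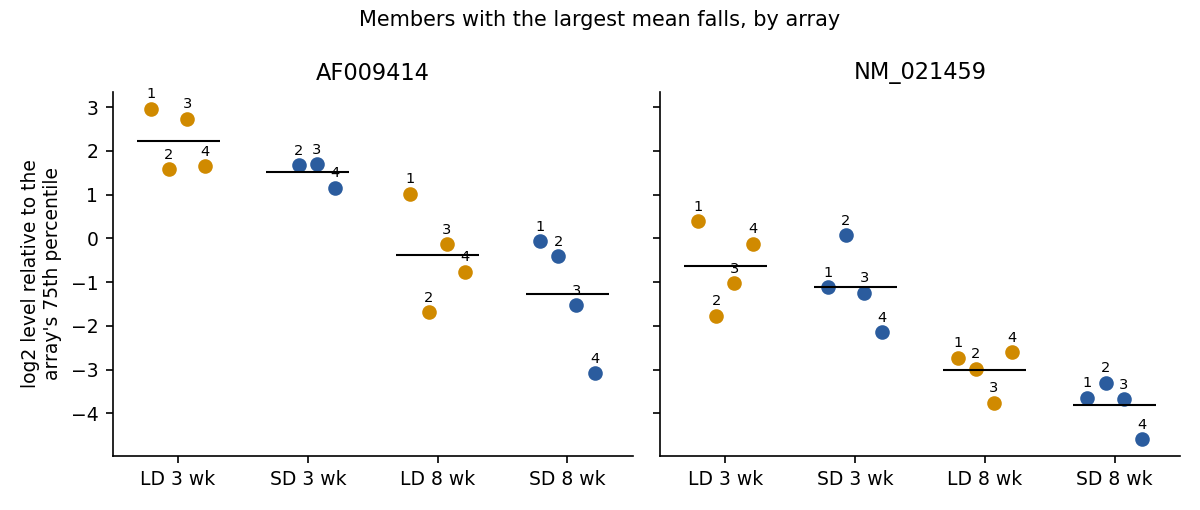
Log2 level of AF009414 (left) and NM_021459 (right) on each array, relative to the array's 75th percentile, by group; numbers are slides, colours are day lengths and bars are group means. All 8-wk points lie below all 3-wk points of the same day length, as the choice of members requires, and AF009414 has no point for SD at 3 wk on slide 1.

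The members ranked 3 to 10 by mean fall had falls of 1.29 to 2.29 in LD and 1.66 to 2.79 in SD. For the member ranked 3 the measured fall was 1.29 in LD and 2.79 in SD, and the latter is only bounded. In LD its arrays stood at −3.83, −4.64, −5.10 and −4.55 at 3 wk and at −5.12, −5.12, −6.19 and −6.87 at 8 wk, so that its LD groups were separated by only 0.01. In SD they stood at −3.11, −3.61, −3.98 and −3.25 at 3 wk and at −6.60, −6.50, −6.57 and −5.46 at 8 wk. It was well above background on no SD array at 8 wk. Against the lowest signal well above background its SD fall was at least 3.31-fold, below the measured 6.94-fold. The member ranked 6 was bright enough to be well above background on all 16 arrays, and its falls were nearly equal, 1.94 in LD and 2.02 in SD. The ranking by size thus holds both dim members, whose size is only bounded, and well measured ones. Others lie between, such as those ranked 7 and 9, which were well above background on only 1 array of each 8-wk group.

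Members reached the dim end of the range of brightness of the identifiers tested, but not its bright end. Their level averaged over the 4 groups ran from −5.97 to 6.10 with a median of −0.02, beside −5.98 to 8.55 with a median of −0.72 for all identifiers tested. Across the 208 members the level and the mean fall had a Pearson r of −0.197 and a Spearman rho of −0.120. These members come from the same arrays and are not independent.

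Detection at 8 wk limited few of the members. A total of 185 (88.9%) were well above background on all 16 arrays, beside 87.9% of all identifiers tested, and 189 were measured on all 16. The median falls of the 185 were 1.28 in LD and 1.42 in SD, and those of the other 23 members were 1.38 and 1.66. The latter were the ones closest to background. Of these, 13 passed the detection filter only through a 3-wk group and so had to be lower at 8 wk. Only bounds can be given for 3 members in SD, which were well above background on no SD array at 8 wk: their falls were at least 3.31-, 1.43- and 1.30-fold, for the members ranked 3, 5 and 15. One of these 3 members was also well above background on no LD array at 8 wk, and as its LD arrays at 3 wk were not all well above background either, no bound is given there.

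By group means the SD fall exceeded the LD fall for 141 of the 208 members (67.8%), with a median difference of 0.15, but of the 4 slides only slide 2 showed this lean. Within slide 2 the SD fall was the larger for 202 of 208 members (97.1%), with a median difference of 0.86. Within slides 1, 3 and 4 it was the larger for 45%, 47.6% and 36.1% of members, with median differences of −0.14, −0.04 and −0.13. Leaving out LD 3-wk replicate 2, which is on that slide and was the lowest array of its group, gave 114 members (54.8%) and a median of 0.03. Leaving out LD 3-wk replicate 1 gave 194 (93.3%) and 0.35. The median without any other single array lay between 0.07 and 0.24. Members thus had no direction of difference shared by all slides. Among the 205 members whose SD fall was not merely bounded, the difference ran from −0.53 to 0.91. For 119 members (57.2%) the falls were within 0.25 of each other and for 180 (86.5%) within 0.5. Of the 28 that were further apart by group means, 27 fell more in SD and 1 fell more in LD. Without LD 3-wk replicate 2 these counts were 20 and 4, while within slide 2 they were 168 and 3, and within slide 4 they were 15 and 26. Across members the falls had a Pearson r of 0.421 and a Spearman rho of 0.314. As the conditions bound both falls and the 8-wk difference, no test was made of these values. The matching shares over all identifiers were not counted.

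The difference in fall is made up of the 8-wk and the 3-wk difference between day lengths. At 8 wk the SD mean was lower than the LD mean for 129 members (62.0%). The median difference was −0.10, beside −0.01 for all identifiers tested. The 8-wk mean was lower in SD by at least 0.5 for 28 members and higher in SD by at least 0.5 for 2. These differences were held under 1 by the choice of members, and the matching shares over all identifiers were not counted.

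The comparison of SD with LD at 3 wk is the one pairwise comparison that the rule did not use directly, although the same arrays entered it through the falls. It asked whether the higher juvenile level of these transcripts already differed with day length. Some dim members passed the detection filter through only 1 of the 3-wk groups, which favours a higher level in that group. In limma, fitted over all 16 arrays and adjusted over 20143 identifiers, 0 of the 208 members passed an adjusted p of 0.05, against 0% of all identifiers. At an unadjusted p under 0.05 there were 7 members, against 1.64% of all identifiers. With slide as a block there were again 0 after adjustment, and 12 at an unadjusted p under 0.05, against 6.44% of all identifiers. The smallest limma adjusted p among the members was 1 without the block and 0.74 with it. The arrays of the 2 day lengths did not overlap for 4 members, against 1.71% of all identifiers, and SD was the higher for 2 of these, against 0.377%. No difference was detectable after adjustment with 4 arrays a group.

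**Figure D3:**
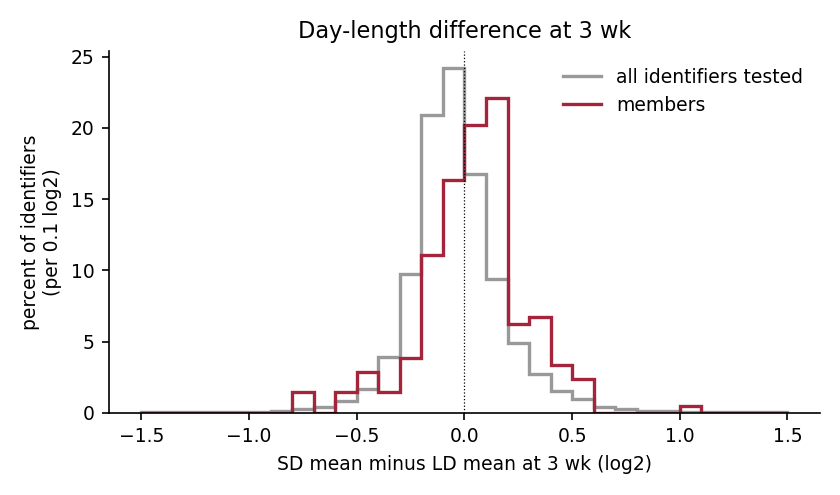
Percent of identifiers per 0.1 log2 step of the 3-wk difference, SD mean minus LD mean, for all identifiers tested (grey) and the members (dark red). The members' median is 0.05 and that of all identifiers −0.05; 24 identifiers, none of them members, lie beyond the axis.

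The sizes of the 3-wk differences were small. They ran from −0.77 to 1.04 among the members with a median of 0.05, and the median of all identifiers was −0.05. The SD mean was the higher for 128 members (61.5%) and for 37.4% of all identifiers. For 180 members the 95% interval excluded a 2-fold difference in either direction (86.5%, beside 84.9% of all identifiers), and with slide as a block it did so for 192 (92.3%, beside 92.9%). For the other 28 members the interval without the block reached 2-fold. AF009414 differed by −0.73 (SE 0.67, limma adjusted p = 1), and NM_021459 by −0.48 (SE 0.48, limma adjusted p = 1). For AF009414 the SD value on slide 1 was missing, where its LD value was the highest of its group. With slide as a block its difference was −0.35.

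The member ranked 3 had the largest positive 3-wk difference, 1.04 (SE 0.41, limma adjusted p = 1), with LD arrays from −5.10 to −3.83 and SD arrays from −3.98 to −3.11, which overlap. At 3 wk it was well above background on 4 SD arrays but on only 3 LD arrays. It passed the detection filter only through SD at 3 wk, which favours a positive difference. The member ranked 200 had the most negative 3-wk difference, −0.77 (SE 0.25, limma adjusted p = 1), with LD arrays from −1.99 to −1.49 and SD arrays from −3.01 to −2.03. Its arrays did not overlap, and its difference did not pass after adjustment over all identifiers.

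The 3-wk difference varied from slide to slide. On slide 1 the SD array was the higher for 62 of 192 members (32.3%, beside 42.6% of all identifiers), with a median difference of −0.36. On slide 2 it was the higher for 195 of 208 members (93.8%, beside 42.5%), with a median of 0.62. On slide 3 it was the higher for 121 (58.2%, beside 37.5%), with a median of 0.12, and on slide 4 for 35 (16.8%, beside 44.3%), with a median of −0.26. Most members were thus higher on the SD array of slide 2 and on the LD array of slide 4, while slides 1 and 3 were more mixed. The medians of all identifiers on the same slides were −0.07, −0.04, −0.08 and −0.03.

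This was part of a wider pattern, in which the members shifted together from array to array within a group. Each array held RNA from 1 hamster, so effects of hamster, RNA sample and array cannot be told apart. The rule did not use these shifts directly, but each array entered it through the group means and the condition on overlap. Without LD 3-wk replicate 1, which is on slide 1, 151 of the 208 were still members. How far the choice of members shaped the shifts was not tested. In LD at 3 wk, 188 of 198 members (94.9%) lay above their group mean on the array of slide 1, 12 of 208 (5.77%) on slide 2, 33 (15.9%) on slide 3 and 111 (53.4%) on slide 4. Of all identifiers, 69.2%, 38.7%, 45% and 30.4% lay above their group mean on these arrays. The members' median deviations from the group mean were 0.64, −0.37, −0.22 and 0.02. For all identifiers they were 0.20, −0.07, −0.03 and −0.10. In SD at 3 wk the members' medians were 0.27, 0.17, −0.18 and −0.29, and those of all identifiers 0.20, −0.06, −0.04 and −0.09. The arrays of slide 1 were the highest of both 3-wk groups, for the members and for all identifiers.

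At 8 wk the members shifted less. In LD at 8 wk the median deviations were 0.24, 0.08, −0.18 and −0.10, and in SD at 8 wk they were 0.10, −0.01, 0.05 and −0.15. The standard deviation over arrays of these medians at 3 wk was 0.45 in LD and 0.27 in SD, and at 8 wk it was 0.19 and 0.11 (n = 4 each). For all identifiers it was 0.14, 0.13, 0.04 and 0.09. The difference in spread between ages was not tested.

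**Figure D4:**
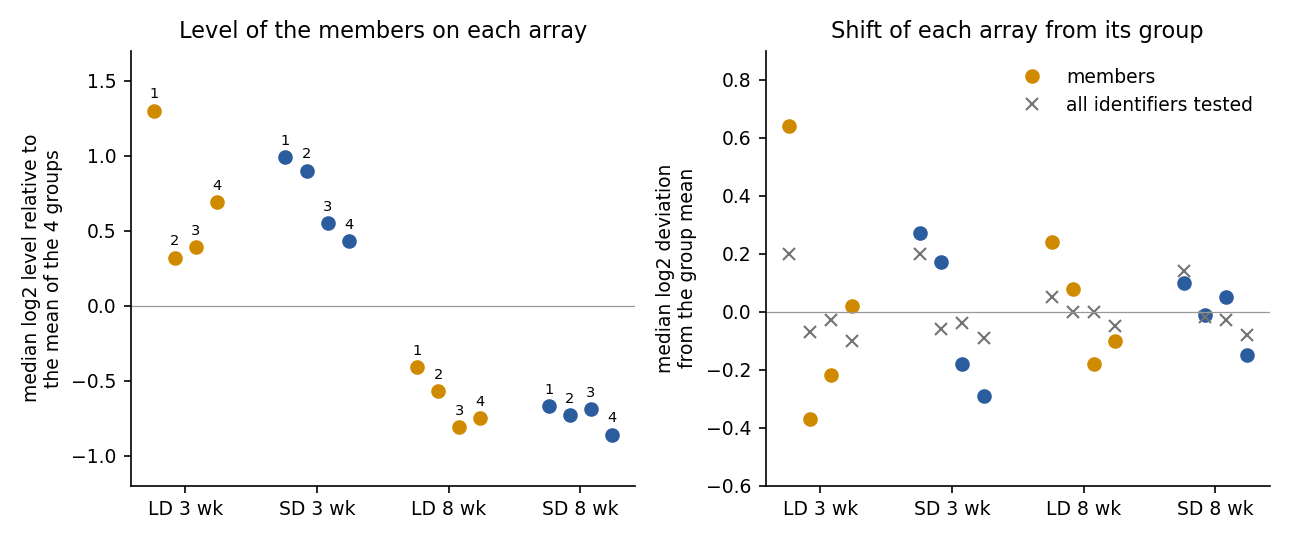
Left, the median over the members of the log2 level on each array relative to the mean of the 4 groups, by group, with slide numbers. Right, the median deviation of each array from its group mean, for the members (coloured) and all identifiers tested (crosses); the members of LD at 3 wk spread from −0.37 to 0.64, and those of SD at 8 wk from −0.15 to 0.10.

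The mean correlation between pairs of members, computed on deviations from group means, gives the same shared shift as 1 number. Over all 16 arrays it was 0.447 for 189 members measured throughout, beside 0.0693 for 18648 identifiers. Over the 8 arrays at 3 wk it was 0.577, beside 0.107, and over the 8 arrays at 8 wk 0.188, beside 0.0348. Slide 1 stood apart in signal, and without it the mean correlation at 3 wk was 0.449 for the members and 0.0235 for all identifiers. With quantile normalization, which gives all arrays 1 distribution of signal, it was 0.565 and 0.0815. Members were chosen from the same arrays, and these correlations are a description of them.

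The shared shifts carried into the size of the fall on each slide. In LD the median fall of the members was 1.72 on slide 1, 0.82 on slide 2, 1.25 on slide 3 and 1.46 on slide 4. In SD it was 1.64, 1.69, 1.22 and 1.34. Slide 2 in LD, whose 3-wk array had the lowest levels of these transcripts in its group, gave the smallest median, under the 2-fold minimum that the group means had to reach. Of 189 members measured on all 16 arrays, 22 (11.6%) fell by at least 1 within every slide in both day lengths. The share over all identifiers was not counted, so this count describes the members only. The sign of the fall is the same on all slides by the condition on overlap, so only these sizes carry information.

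**Figure D5:**
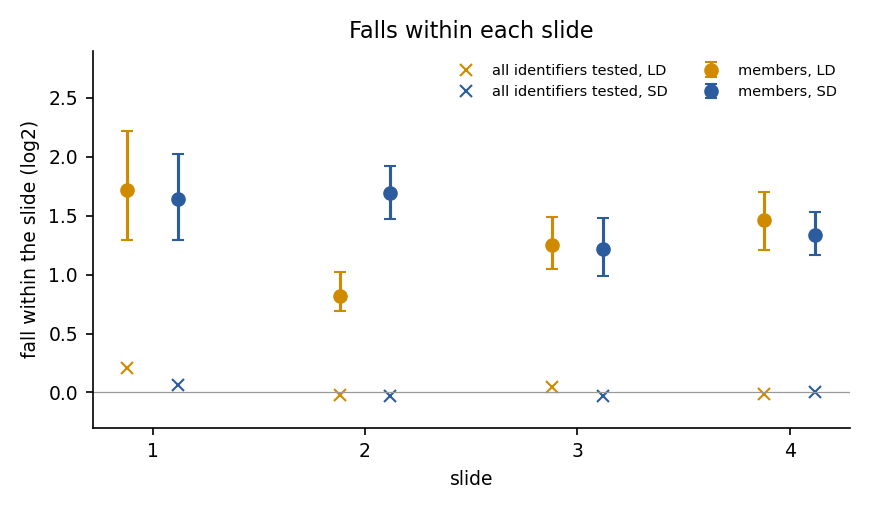
Fall within each slide in log2 units, as the median (points) and quartiles (bars) over the members, in LD and SD; crosses are medians over all identifiers tested. The LD median on slide 2 is 0.82 and the other 7 medians of the members lie between 1.22 and 1.72, while those of all identifiers lie between −0.03 and 0.21.

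The number of members passing limma's own threshold is given for completeness, since the rule used the same changes and nothing can be read from it. In LD 177 of the 208 had an adjusted p under 0.05 for a fall, where 1.78% of all identifiers did, and in SD 205 did, where 4.38% of all identifiers did.

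The rule took the brightest probe of each transcript. The falls of other, dimmer probes of the same transcripts were not used by the rule but were measured in the same RNA. A total of 59 members had at least 1 other probe past the detection filter, 61 probes in all. Of these, 51 (83.6%) were lower at 8 wk in both day lengths, where 40.6% of such second probes of all identifiers were. The fall was at least 2-fold in both day lengths for 33 (54.1%). Their median falls were 1.1 in LD and 1.26 in SD, with ranges from −0.28 to 1.64 and from −0.40 to 2.08. The size of the fall thus differed between probes, and 10 of the 61 were not lower in both day lengths. Members were chosen by the fall of the brightest probe and not of these. Whether that choice or the lower brightness of these probes affected the size of their falls was not tested.

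By kind of identifier, 171 members (82.2%) carried a RefSeq accession, beside 70.6% of all identifiers tested. Another 16 (7.69%) were AK cDNA entries, beside 14.8%, 3 were Ensembl transcripts and 18 were of other kinds. Several identifiers can stand for 1 gene, so the 208 may represent fewer genes.

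The most comparable set, chosen by the mirrored rule, holds transcripts that rose at least 2-fold in both day lengths and ended less than 2-fold apart. It had 78 transcripts (0.387% of those tested), fewer than the 208 that fell. Their median 3-wk minus 8-wk difference was −1.34 in LD and −1.56 in SD. The largest rises were −3.35 and −3.75 on that scale, beyond the largest falls of 2.62 and 2.79. The difference in number between the sets was not tested.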

How the data were processed

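Each sample's scanner file was made by the authors with Agilent Feature Extraction 10.5.1.1, per the file headers, including background subtraction and detrending on each array. The deposited intensity values are linear, with no normalization from array to array. A table of values that the authors also deposited repeats them, with column medians from 26.6 to 91.5, and only 4 of its cells differed by over 0.5%. Other deposited columns used are flags for control, outlier, saturated and well-above-background spots.

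Outlier spots were left out, spots of a probe averaged, and the array's 75th percentile over probes subtracted after log2. Of 41174 probes, 24998 (60.7%) were well above background on all 4 arrays of a group. The brightest stood for its identifier if measured on at least 12 arrays. Changes were fitted with limma 3.58.1 in R 4.3.3 (intensity trend, no slide term), adjusted by Benjamini-Hochberg over 20143 identifiers, and tested on simulated data. Arrays of a slide deviated together over all identifiers (median correlation 0.451, lowest 0.224) but less so over the members (0.16, lowest −0.36), and slide as a block is an alternative. The members and lists were chosen with earlier results of these data known. Named were the members with the 2 largest mean falls, since the rule for named genes allows at most 2 without a symbol; members picked out by rank were chosen after their values were seen. Gene lists and promoter motifs could not be used without gene names. Pseudocounts were not needed. The number of arrays limits precision.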

Additional observations from a re-analysis of the deposited data

Results flagged for a closer look

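One of 16 groups of 4 values examined held a value far from the others by Dixon's criterion, about what chance gives. The fall of NM_021459 within slides in SD was 3.37 on slide 2, against 2.43 to 2.53 on the other slides, a gap of 0.896 of the whole range, above the 95% critical value for 4 samples. On that slide its 3-wk SD array stood at 0.07, the highest of its group.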

How the results depend on the processing

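The number of members was 136 with normexp, a background correction run with an offset of 50 (130 of them among the 208). It was 24 with a minimum fall of 1.5 and 321 without the condition on overlap. In the other 11 settings it was within 1.5 times of 208. Leaving out single arrays it ran from 158 (without LD 3-wk replicate 1) to 305 (without LD 8-wk replicate 1). Normexp fell back on the array's median where a local background was over 3 times that median, as chosen after seeing the data, as was a 75th percentile over all spots that are no controls, which gave 223 members, 196 of them shared. Without slide 1 there were 262, of which 166 were shared. The members' median fall moved by less than its standard deviation over slides (0.38 in LD, 0.23 in SD) in every setting tried, from 1.1 to 1.43 in LD and from 1.37 to 1.56 in SD when single arrays were left out. The fall of NM_021459 was 1.7 in LD and 1.69 in SD with normexp. The comparison of the members' falls between day lengths array by array and slide by slide was added after seeing the data.

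Counts over all identifiers moved more. The LD age change gave 935 calls with outlier spots kept, 1246 without slide 1 and 2394 with slide as a block (replicate block), against 601, and 232 to 682 without single arrays. The SD age change gave 2865 without slide 1 and 4655 with the block, against 1844, and 1139 to 2201 without single arrays. The 8-wk difference gave 528 with the block, against 193, and 118 to 241. The 3-wk difference gave 0 in limma in every setting but 1, where it was 1 (without LD 3-wk replicate 2), and 0 members in any. With 4 arrays a group, dim members have the least certain sizes.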

Other observations

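The 78 transcripts that rose alike in both day lengths were compared with the members array by array at 3 wk. In LD their median deviation from the group mean was −0.12, 0.29, 0.14 and −0.19 on slides 1 to 4, where that of the members was 0.64, −0.37, −0.22 and 0.02. In SD it was 0.17, −0.38, 0.15 and 0.20, where that of the members was 0.27, 0.17, −0.18 and −0.29. On slide 2 the rising transcripts thus lay above their group mean on the LD array and below it on the SD array, and the members the reverse. On slide 1 in SD both sets lay above their group mean, as did all identifiers, by 0.20. With quantile normalization the members' medians at 3 wk were 0.63, −0.38, −0.24 and 0.07 in LD and 0.23, 0.17, −0.16 and −0.24 in SD. These patterns were noticed in the data and were not tested.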
